A study of Mus musculus with 12 samples.

Results

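Genes for secreted chemokines and cytokines of fibroblasts were examined by RNA-seq in mouse embryonic fibroblasts (MEFs) with and without RTF2, a replisome protein. The 10 members were the chemokine genes Cxcl1, Cxcl5, Cxcl10, Cxcl12, Cx3cl1, Ccl2, Ccl5 and Ccl7 and the cytokine genes Il6 and Csf1, chosen by symbol from the 24100 genes of the count table, and all 10 were found there. The series holds 12 libraries in 4 groups of 3, WT and RTF2-deficient MEFs of 2 lines. WT MEFs were Rtf2+/+ and RTF2-deficient MEFs were Rtf2-/lox, one allele being deleted and the other floxed, and cells of both genotypes received the Cre retrovirus 72 hrs before harvest, so that exposure to virus and to Cre was common to every library. All MEFs came from mid-gestation embryos and had been immortalized with SV40 large T antigen, a viral protein that inactivates p53 and the Rb family. The methods speak of littermate MEFs and of lines from separate mothers in general, without saying so of these 2 lines. Both genotypes were inherited from crosses of mice, so the WT and RTF2-deficient MEFs of a line came from different embryos. Within a line, genotype therefore cannot be told apart from embryo. The study calls the 3 libraries of a group technical replicates, so the spread within a group says nothing of the spread between embryos, and biological replication rests on the 2 lines.

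Chemokines are small secreted proteins that draw leukocytes along a gradient, and each binds one or a few G protein-coupled receptors that are carried mostly by blood cells. Fibroblasts are a resident source of them. CXC chemokines with an ELR motif, such as CXCL1 and CXCL5, recruit neutrophils through CXCR2, whereas CXCL10 recruits activated T cells through CXCR3 and is induced by interferons. CCL2, CCL7 and CCL5 recruit monocytes and lymphocytes, CX3CL1 is made as a membrane-bound adhesion molecule that proteases release, and CXCL12 is a homeostatic chemokine that holds stem cells and progenitors in their niche through CXCR4. IL-6 signals through the shared receptor subunit encoded by Il6st, and CSF1 is the growth factor of macrophages. Transcription of the inducible members is driven in many cell types by NF-κB, by interferon-responsive factors and by AP-1.

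The library totals lay between 39360167 and 44695002 counts, and Rtf2 checked the labels. It had 45.6 ± 1.35 CPM (counts per 1e6 counts, TMM-normalized; SD, n = 3 libraries) in WT line 1 and 5.79 ± 0.444 in RTF2-deficient line 1. In line 2 it had 53.9 ± 3.52 in WT and 6.50 ± 0.168 in RTF2-deficient MEFs. The fibroblast label held for collagen and vimentin: the 10 fibroblast markers summed to between 13070 and 21030 CPM in a library, led by Col1a1 with at least 201540 counts, although Dcn, Lum and Fap had at most 93 counts. The 9 macrophage and leukocyte markers summed to between 1.24 and 3.49 CPM, with Ptprc at 1 to 5 counts and Cd3e at 0. Sex-linked genes set WT line 2 apart. Ddx3y, on the Y chromosome, had at least 4164 counts in each of its libraries and at most 8 in the other 9 libraries, so in line 2 the genotypes also differed in sex-linked expression and the 2 differences cannot be told apart. Libraries differed in interferon-stimulated genes as well. An interferon score, the median log2 CPM over 29 such genes, was 3.98, 0.985 and 1.48 in WT line 1 (replicates 1, 2 and 3), 1.83, 0.233 and 0.791 in RTF2-deficient line 1, 8.16, 4.53 and 6.28 in WT line 2, and 1.59, 3.29 and 6.58 in RTF2-deficient line 2. These 29 genes came to summed levels of 190.3 to 726.2 CPM, 178.6 to 320.8 CPM, 1050 to 10420 CPM and 269.5 to 3936 CPM in the 4 groups in that order.

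In these MEFs the members covered a wide span of levels. Per length of exon sequence, Cxcl12 led with a median of 140.6 CPM per kb over the 12 libraries (range 41.2 to 320.9), followed by Csf1 with 102.8 (66.9 to 191.3). The ranges of these first 2 overlapped. Cx3cl1 stood next with 16.3 CPM per kb (11.5 to 56.7), and its range did not reach that of Csf1. Ccl5 (13.5), Ccl2 (10.3), Cxcl10 (9.06), Ccl7 (6.09), Cxcl5 (2.70), Cxcl1 (1.16) and Il6 (0.189 CPM per kb) followed, and each of these had a range that overlapped that of its neighbours in the order. Between the highest and the lowest library the level differed 2.86-fold for Csf1, 4.92-fold for Cx3cl1 and 7.78-fold for Cxcl12, whereas it differed 174.5-fold for Cxcl10, 175.4-fold for Ccl5 and 232.2-fold for Cxcl5. The spread between libraries of one group, expressed as edgeR's biological coefficient of variation, was 0.908 for Cxcl5, 0.754 for Ccl5, 0.678 for Cxcl10 and 0.653 for Il6, at percentiles of 98.7 to 99.5 among the 14263 genes tested. Csf1, at 0.144, lay near the median of all genes, 0.138. 

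**Figure D1:**
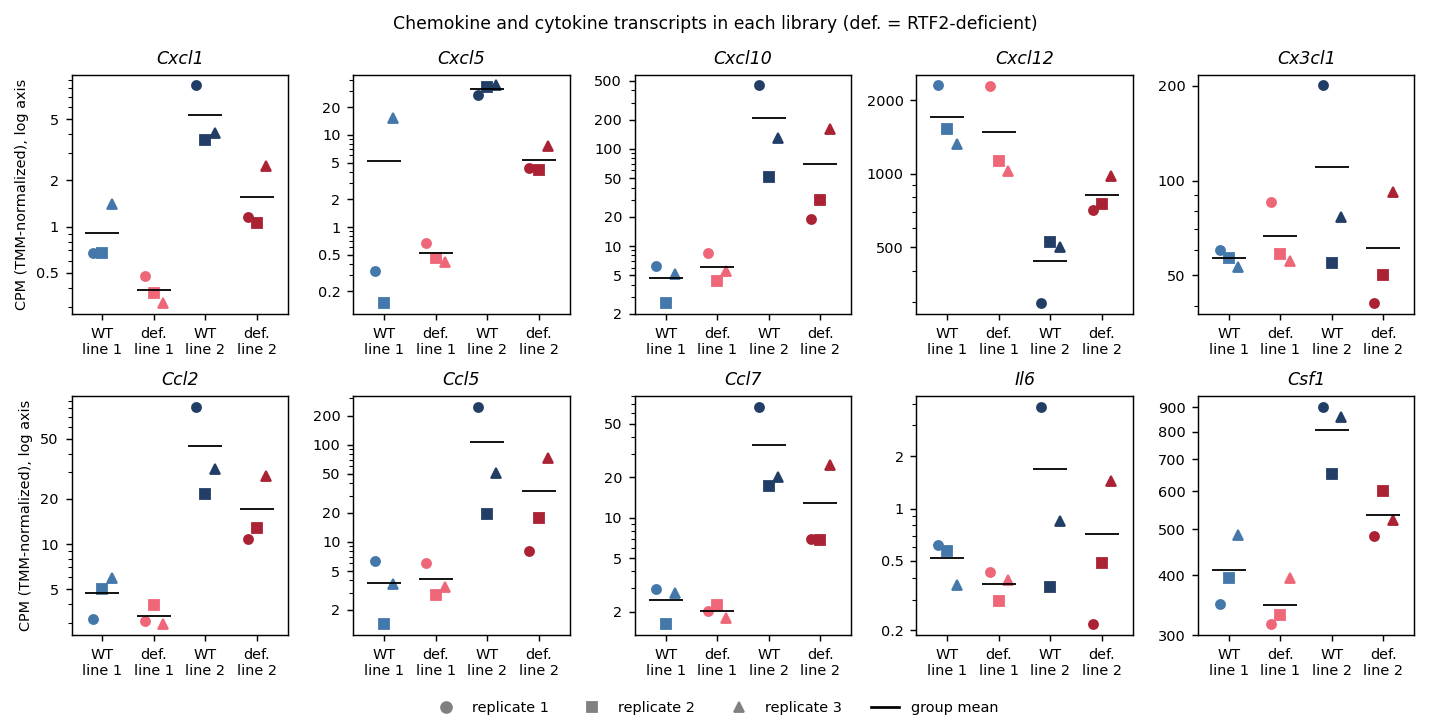
CPM of each of the 10 genes (log axis, a separate range for each gene) in the 12 libraries, by group; marker shape gives the replicate number and the horizontal bar the group mean. WT line 2 replicate 1 is the highest point for Cxcl1, Cxcl10, Cx3cl1, Ccl2, Ccl5, Ccl7, Il6 and Csf1, and Cxcl12 runs the other way.

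Cxcl1 and Cxcl5, the neutrophil chemokines, were the 2 members that were called lower in RTF2-deficient MEFs over both lines. For a call the quasi-likelihood test of edgeR had to give a Benjamini-Hochberg adjusted p, taken over all genes tested, of less than 0.05 and the log2 fold change had to exceed 1 in size. Of all genes 1.72% met this, and 1.22% did so with a lower level. The 10 members had a median log2 fold change of -0.87, RTF2-deficient over WT, with 9 below 0, beside a median of 0.0019 over all genes tested. Without WT line 2 replicate 1, Cxcl10, Cx3cl1 and Ccl5 lay above 0 over both lines, at 0.023, 0.086 and 0.024. Ccl2, Ccl7, Il6 and Csf1 were then at -0.56, -0.40, -0.12 and -0.35, and Cxcl1 and Cxcl5 at -1.27 and -2.96. The members tended to be high in the same libraries, so their values are not independent. Because the sample is bulk RNA, fewer cells with a transcript and less transcript per cell cannot be told apart for any of these genes.

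Cxcl1 (Entrez Gene 14825, chromosome 5 from 90891245 to 90893121 in GRCm38, + strand) had 0.669, 0.669 and 1.40 CPM in WT line 1 and 0.478, 0.368 and 0.317 CPM in RTF2-deficient line 1. In line 2 Cxcl1 had 8.30, 3.68 and 4.09 CPM in WT and 1.16, 1.05 and 2.46 CPM in RTF2-deficient MEFs. Within each line every RTF2-deficient library thus lay below every WT library, and Cxcl1 was the only member of which this held, whereas 6.42% of all genes were lower in both lines without overlap. Over 6 against 6 libraries the genotypes overlapped for every member, whereas they did not for 5.97% of all genes. For Cxcl1 the log2 fold change was -1.54 (SE 0.321, edgeR adjusted p = 0.00834) over both lines, -1.23 (SE 0.490, adjusted p = 0.269) in line 1 and -1.78 (SE 0.429, adjusted p = 0.0205) in line 2. The level was low, with 13 to 382 counts per library. Leaving out one library at a time, the value over both lines stayed between -1.74 and -1.27 and kept its call, but with the line term removed it lost it, at -1.68 (edgeR adjusted p = 0.166). In line 2 the call was lost without WT replicate 1 (edgeR adjusted p = 0.0647), without RTF2-deficient replicate 1 (adjusted p = 0.0878) and without RTF2-deficient replicate 2 (adjusted p = 0.0966).

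Cxcl5 (Entrez Gene 20311, chromosome 5 from 90759298 to 90761625, + strand) lies upstream of Cxcl1 in the same gene cluster. It had 0.334, 0.149 and 15.2 CPM in WT line 1 against 0.669, 0.466 and 0.415 CPM in RTF2-deficient line 1. WT line 1 replicate 3, with 630 counts beside 14 and 6 in its 2 sister libraries, set the group mean of 5.23 ± 8.64 CPM (SD, n = 3), and the other 2 libraries lay below all 3 RTF2-deficient ones. In line 2 Cxcl5 had 27.2, 33.3 and 34.5 CPM in WT and 4.33, 4.18 and 7.60 CPM in RTF2-deficient MEFs, with no overlap. For Cxcl5 the log2 fold change was -2.87 (SE 0.798, edgeR adjusted p = 0.0347) over both lines, -3.33 (SE 1.27, adjusted p = 0.244) in line 1 and -2.56 (SE 1.08, adjusted p = 0.149) in line 2. Without WT line 1 replicate 3 it was -1.64 (edgeR adjusted p = 0.0801) over both lines and 1.08 (adjusted p = 0.331) in line 1, that is, of the other sign, while in line 2 the value of -2.55 then passed both thresholds (adjusted p = 0.000541). The call over both lines was also lost, with log2 fold changes between -2.90 and -2.78, without RTF2-deficient line 1 replicate 1, 2 or 3, WT line 2 replicate 2 or 3, or RTF2-deficient line 2 replicate 1 or 2 (edgeR adjusted p = 0.0542, 0.0730, 0.0728, 0.0617, 0.0657, 0.0780 and 0.0843). It was lost as well with the replicate number as a block (-2.61, edgeR adjusted p = 0.0507) and without the line term (-2.65, adjusted p = 0.177), and DESeq2 gave Cxcl5 no adjusted p. The block is of limited weight, since the numbers do not pair the libraries of RTF2-deficient line 2 with the others.

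The interferon-linked members Cxcl10 and Ccl5 were called in no comparison of genotypes and stood out in single libraries. Part of the Cxcl10 promoter is printed here because, of the windows at hand, it alone held letters matching the interferon-response, κB and AP-1 motifs together. RefSeq's window of 250 bases before to 50 after the start was at hand for 6 members (Csf1, Il6, Cxcl1, Cxcl10, Cxcl12 and Cx3cl1; GRCm38.p6). The stretch of Cxcl10 from -220 to -61, chr5:92348950-92349109 on the - strand, is given 5′ to 3′ in the sense of the gene, with capitals marking, in order, a match to the interferon-stimulated response element (ISRE, searched on either strand as TTTC, any 2 bases and TTTC again) at -213, a κB match at -159, a pair of overlapping κB matches from -104, and an AP-1 match (TGANTCA) at -74.
Cxcl10: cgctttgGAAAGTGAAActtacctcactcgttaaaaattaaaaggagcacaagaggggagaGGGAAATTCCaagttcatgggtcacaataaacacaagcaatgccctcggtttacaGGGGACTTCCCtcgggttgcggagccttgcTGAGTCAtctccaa
For comparison, the κB matches (capitals) of 3 other members are shown with 10 bases to either side. Cxcl1 has a pair that overlap on opposite strands and start at -71 (chr5:90891164-90891194, + strand), and the match of Il6 starts at -44 (chr5:30013060-30013089, + strand) and that of Csf1 at -154 (chr3:107760604-107760633, - strand).
Cxcl1: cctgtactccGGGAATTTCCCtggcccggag
Il6: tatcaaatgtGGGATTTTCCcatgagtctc
Csf1: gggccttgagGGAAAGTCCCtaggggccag
A κB match on either strand was found in 4 of the 6 windows and in 8.46% of all 32851 promoter windows of the same length, an ISRE match in 1 (Cxcl10) and in 3.44%, an AP-1 match in 2 (Cxcl10 and Il6) and in 7.81%, and the letters TATAAA in 1 (Cx3cl1) and in 13.6%. These are matches of letters, not measured binding sites.

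Cxcl10 (Entrez Gene 15945, chromosome 5 from 92346638 to 92348889, - strand) had 6.21, 2.58 and 5.19 CPM in WT line 1 and 8.41, 4.42 and 5.51 CPM in RTF2-deficient line 1, which overlapped. In WT line 2 it had 449.6, 51.6 and 128.4 CPM, and in RTF2-deficient line 2 it had 19.1, 29.7 and 161.0 CPM. Replicate 1 of WT line 2 and replicate 3 of RTF2-deficient line 2 were the 2 highest of the 12 libraries, and they were also the 2 with the highest interferon scores. For Cxcl10 the log2 fold change was -0.68 (SE 0.685, edgeR adjusted p = 0.546) over both lines, 0.39 (SE 0.904, adjusted p = 0.916) in line 1 and -1.58 (SE 0.846, adjusted p = 0.250) in line 2. Without WT line 2 replicate 1 the value of Cxcl10 was 0.023 over both lines and -0.36 (edgeR adjusted p = 0.832) in line 2. Without RTF2-deficient line 2 replicate 3 the value in line 2 was -3.08 and passed (edgeR adjusted p = 0.0279), and without both of these libraries, a removal chosen after the values were seen, it was -1.87 (adjusted p = 0.0344).

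Ccl5 (Entrez Gene 20304, chromosome 11 from 83525778 to 83530518, - strand), a chemokine for T cells and monocytes, varied with Cxcl10 although it lies on another chromosome. It had 6.33, 1.41 and 3.67 CPM in WT line 1 and 6.11, 2.85 and 3.44 CPM in RTF2-deficient line 1. In line 2 Ccl5 had 247.6, 19.5 and 50.6 CPM in WT and 7.99, 17.8 and 73.3 CPM in RTF2-deficient MEFs, where the highest RTF2-deficient library exceeded 2 of the 3 WT libraries. For Ccl5 the log2 fold change was -0.86 (SE 0.737, edgeR adjusted p = 0.469) over both lines, 0.12 (SE 1.01, adjusted p = 0.980) in line 1 and -1.68 (SE 0.945, adjusted p = 0.275) in line 2. Without WT line 2 replicate 1 the value over both lines was 0.024. The ratio of Cxcl10 to Ccl5 counts stayed between 0.981 and 2.65 in the 12 libraries.

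Ccl2 and Ccl7, the monocyte chemokines, sit side by side in the Ccl cluster of chromosome 11, with 8259 bases between them. Ccl2 (Entrez Gene 20296, from 82035577 to 82037452, + strand) is the principal ligand of CCR2. It had 3.20, 5.05 and 5.94 CPM in WT line 1 and 3.08, 3.92 and 2.93 CPM in RTF2-deficient line 1. In line 2 Ccl2 had 82.1, 21.4 and 31.5 CPM in WT and 10.8, 12.7 and 28.2 CPM in RTF2-deficient MEFs. The groups overlapped in both lines, in line 2 through RTF2-deficient replicate 3 alone. For Ccl2 the log2 fold change was -0.98 (SE 0.365, edgeR adjusted p = 0.101) over both lines, -0.51 (SE 0.515, adjusted p = 0.767) in line 1 and -1.38 (SE 0.486, adjusted p = 0.0893) in line 2.

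Ccl7 (Entrez Gene 20306, from 82045712 to 82047525, + strand), another CCR2 ligand, had 2.96, 1.61 and 2.77 CPM in WT line 1 and 2.03, 2.23 and 1.804 CPM in RTF2-deficient line 1. In line 2 Ccl7 had 67.3, 17.2 and 20.03 CPM in WT and 6.95, 6.80 and 24.8 CPM in RTF2-deficient MEFs, again with RTF2-deficient replicate 3 among the WT values. For Ccl7 the log2 fold change was -0.92 (SE 0.454, edgeR adjusted p = 0.205) over both lines, -0.28 (SE 0.646, adjusted p = 0.917) in line 1 and -1.44 (SE 0.584, adjusted p = 0.136) in line 2. Neither gene was called by edgeR in any of these comparisons, whereas voom with the groups as a random block called both over both lines, at -1.09 for Ccl2 (adjusted p = 0.0293) and -1.20 for Ccl7 (adjusted p = 0.0476). Its estimated correlation within groups was -0.148, and a negative value narrows the errors between groups. The voom calls thus make no allowance for technical replicates. Both genes passed in edgeR in line 2 once RTF2-deficient line 2 replicate 3 was left out, at -1.91 for Ccl2 (edgeR adjusted p = 0.0278) and -2.32 for Ccl7 (adjusted p = 0.0183), and Ccl2 also passed without WT line 2 replicate 2 (-1.72, adjusted p = 0.0433). Without WT line 2 replicate 1, by far the highest library of both genes, the values in line 2 shrank to -0.61 for Ccl2 (edgeR adjusted p = 0.362) and -0.53 for Ccl7 (adjusted p = 0.559). Without both of these libraries, WT line 2 replicate 1 and RTF2-deficient line 2 replicate 3, a removal chosen after the values were seen, both genes were called, at -1.16 for Ccl2 (edgeR adjusted p = 0.0246) and -1.42 for Ccl7 (adjusted p = 0.00581).

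Cx3cl1 (Entrez Gene 20312, chromosome 8 from 94772180 to 94782427, + strand) encodes fractalkine, the ligand of CX3CR1. It had 60.3, 56.9 and 53.0 CPM in WT line 1 and 85.5, 58.6 and 55.6 CPM in RTF2-deficient line 1. In line 2 Cx3cl1 had 200.4, 54.7 and 76.4 CPM in WT and 40.8, 50.01 and 91.9 CPM in RTF2-deficient MEFs. Apart from WT line 2 replicate 1, the 11 libraries lay within 40.8 to 91.9 CPM, and lines and genotypes overlapped throughout. For Cx3cl1 the log2 fold change was -0.32 (SE 0.339, edgeR adjusted p = 0.575) over both lines, 0.23 (SE 0.432, adjusted p = 0.894) in line 1 and -0.86 (SE 0.434, adjusted p = 0.225) in line 2, and without WT line 2 replicate 1 it was 0.086 over both lines.

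Cxcl12 (Entrez Gene 20315, chromosome 6 from 117168535 to 117181368, + strand) was the only member with a value above 0 over both lines. It had 2298, 1524 and 1320 CPM in WT line 1 and 2279, 1125 and 1030 CPM in RTF2-deficient line 1. In line 2 Cxcl12 had 295.2, 524.3 and 503.1 CPM in WT and 713.9, 751.2 and 982.8 CPM in RTF2-deficient MEFs, with every RTF2-deficient library above every WT library. For Cxcl12 the log2 fold change was 0.34 (SE 0.280, edgeR adjusted p = 0.456) over both lines, -0.21 (SE 0.330, adjusted p = 0.866) in line 1 and 0.89 (SE 0.333, adjusted p = 0.108) in line 2. The lack of overlap in line 2 was shared with 29.5% of all genes.

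Il6 (Entrez Gene 16193, chromosome 5 from 30013114 to 30019975, + strand) was close to the lower limit of the assay, with 9 to 177 counts per library. It had 0.621, 0.570 and 0.362 CPM in WT line 1 and 0.430, 0.294 and 0.390 CPM in RTF2-deficient line 1. In line 2 Il6 had 3.84, 0.353 and 0.850 CPM in WT and 0.217, 0.488 and 1.45 CPM in RTF2-deficient MEFs. Only WT line 2 replicate 1 and RTF2-deficient line 2 replicate 3 exceeded 1 CPM. For Il6 the log2 fold change was -0.89 (SE 0.577, edgeR adjusted p = 0.333) over both lines, -0.47 (SE 0.879, adjusted p = 0.893) in line 1 and -1.22 (SE 0.791, adjusted p = 0.345) in line 2. In line 2 it was 0.27 without WT line 2 replicate 1.

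Csf1 (Entrez Gene 12977, chromosome 3 from 107741048 to 107760469, - strand) was the most even of the members, and its shift was small and passed the test without reaching the fold threshold. It had 348.6, 395.0 and 487.0 CPM in WT line 1 and 315.8, 330.8 and 394.1 CPM in RTF2-deficient line 1. In line 2 Csf1 had 903.1, 651.9 and 859.2 CPM in WT and 483.3, 602.2 and 522.9 CPM in RTF2-deficient MEFs, which did not overlap. For Csf1 the log2 fold change was -0.41 (SE 0.118, edgeR adjusted p = 0.0392) over both lines, -0.24 (SE 0.158, adjusted p = 0.589) in line 1 and -0.59 (SE 0.158, adjusted p = 0.0346) in line 2. Leaving out each of the 12 libraries in turn, Csf1 missed the adjusted p over both lines 8 times and in line 2 7 times (edgeR adjusted p up to 0.0961 and 0.135). Over both lines it also missed it without the line term (edgeR adjusted p = 0.305), while its log2 fold change stayed between -0.72 and -0.35 in all of these. With no demand on the fold, 3 of the 10 members passed over both lines beside 13.2% of all genes, and 2 passed in line 2 beside 12.5%.

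**Figure D2:**
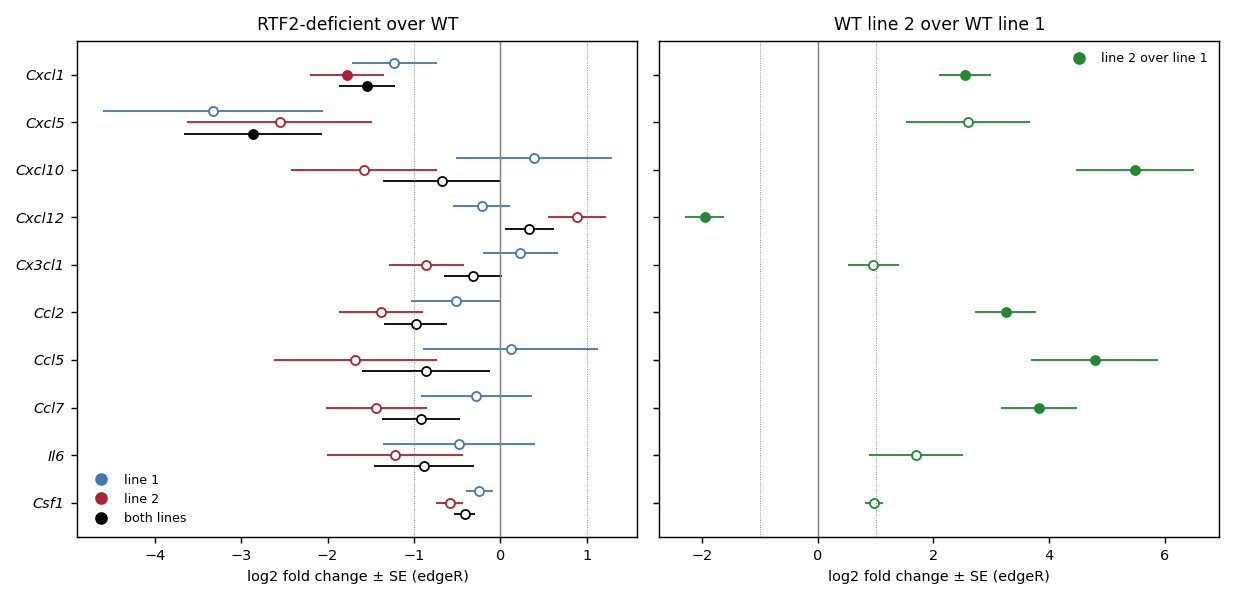
Log2 fold change ± SE from edgeR for the 10 genes, RTF2-deficient over WT (left, by line and over both lines) and WT line 2 over WT line 1 (right); filled circles passed both thresholds of a call, and dotted lines mark that fold. On the left the filled circles are those of Cxcl1 over both lines and in line 2 and of Cxcl5 over both lines, and on the right those of Cxcl1, Cxcl10, Cxcl12, Ccl2, Ccl5 and Ccl7.

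Line by line, edgeR called no member in line 1, where it called 0.918% of all genes, and 2 members (Cxcl1 and Cxcl5) had an unadjusted p under 0.05. DESeq2 gave Cxcl5 no p-value in line 1 and called no other member there. In line 2, 1 member (Cxcl1) was called, and lower, beside 3.78% of all genes and 2.05% lower, and 6 members had an unadjusted p under 0.05. The share of all genes at an unadjusted p under 0.05 is not given, here or for the lists below. In line 2, 12.5% of all genes passed even the adjusted p. The number of members called in line 2 fell to 0 when WT replicate 1, RTF2-deficient replicate 1 or RTF2-deficient replicate 2 of line 2 was left out. It was 2 when WT line 1 replicate 3 or WT line 2 replicate 2 was left out, and 4 when RTF2-deficient line 2 replicate 3 was. The members' median log2 fold change was -0.26 in line 1 and -1.41 in line 2. Without WT line 2 replicate 1, the line 2 values of Cxcl10, Cx3cl1, Ccl5 and Il6 were -0.36, -0.10, -0.080 and 0.27. Those of Ccl2, Ccl7 and Csf1 were then -0.61, -0.53 and -0.49, and those of Cxcl1 and Cxcl5 -1.31 and -2.65. Groups did not overlap for 1 member in line 1 (Cxcl1) against 21.1% of all genes, and for 4 in line 2 (Cxcl1, Cxcl5, Cxcl12 and Csf1) against 29.5%. A difference of the genotype effect between lines was tested as an interaction. By edgeR it was called for none of the 10 members, with 1 unadjusted p under 0.05, while 1.05% of all genes were called. DESeq2 gave Cxcl5 no p-value for it and called it for no other member. The difference, line 2 minus line 1, was largest in size for Cxcl10 (-1.98, SE 1.23, edgeR adjusted p = 0.817) and Ccl5 (-1.799, SE 1.38, adjusted p = 0.895), and had its smallest adjusted p for Cxcl12 (1.10, SE 0.468, adjusted p = 0.523). The SEs of this difference ran from 0.223 for Csf1 to 1.635 for Cxcl5. Leaving out WT line 1 replicate 3 gave Cxcl5 an interaction of -3.63 (edgeR adjusted p = 0.0158), the one member called in any such fit.

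More members separated the WT lines than the genotypes. Of the 10 members, 6 were called between WT line 2 and WT line 1, beside 6.76% of all genes. These were 5 higher in WT line 2 (3.89% of all genes) and 1 lower (2.87%). For 8 members, all but Cx3cl1 and Il6, the 3 libraries of one WT line lay apart from the 3 of the other, as they did for 30.2% of all genes. Higher in WT line 2 were Cxcl10, with a log2 fold change of 5.49 (SE 1.02, edgeR adjusted p = 0.00457), Ccl5 (4.80, SE 1.10, adjusted p = 0.0142), Ccl7 (3.83, SE 0.655, adjusted p = 0.00293), Ccl2 (3.25, SE 0.527, adjusted p = 0.00208) and Cxcl1 (2.55, SE 0.447, adjusted p = 0.00332). Cxcl12 went the other way and was lower in WT line 2, with a log2 fold change of -1.96 (SE 0.342, edgeR adjusted p = 0.00329). Csf1 was 0.97 higher (SE 0.159, adjusted p = 0.00221), just under the fold threshold. With it 7 members passed the adjusted p alone, beside 14.0% of all genes. Cxcl5 (2.60, adjusted p = 0.141), Il6 (1.70, adjusted p = 0.202) and Cx3cl1 (0.96, adjusted p = 0.176) were not called. Ccl5 lost its call without WT line 1 replicate 2 (edgeR adjusted p = 0.0628) or replicate 3 (adjusted p = 0.0539), and without WT line 1 replicate 3 Cxcl5 was called at 6.997 (adjusted p = 1.49e-05). Csf1 was called at 1.10 without that library or without WT line 2 replicate 2. WT line 2 replicate 1 carried part of these values. Without it the 6 members stayed called, at 4.25 for Cxcl10, 3.18 for Ccl5 (edgeR adjusted p = 0.0451), 2.91 for Ccl7, 2.47 for Ccl2, 2.07 for Cxcl1 and -1.75 for Cxcl12. Of the 29 interferon-stimulated genes, edgeR called 14 higher in the same comparison and DESeq2 called 28 genes, with 29 at an unadjusted p under 0.05. The WT lines also differed in sex-linked genes, and within this comparison that cannot be told apart from any other difference between the embryos. These WT libraries serve in the comparisons of genotypes as well, so the 2 sets of fold changes share samples. Both RTF2-deficient lines had at most 8 Ddx3y counts in a library. There every line 2 library exceeded every line 1 library for Cxcl10 (at least 19.1 against at most 8.41 CPM) and Ccl5 (7.99 against 6.11). The same held for Ccl2 (10.8 against 3.92), Ccl7 (6.80 against 2.23) and Cxcl1 (1.05 against 0.478). For Cxcl12 line 2 lay below (at most 982.8 against at least 1030 CPM), and Cx3cl1 and Il6 overlapped. The part of sex-linked genes was not tested.

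**Figure D3:**
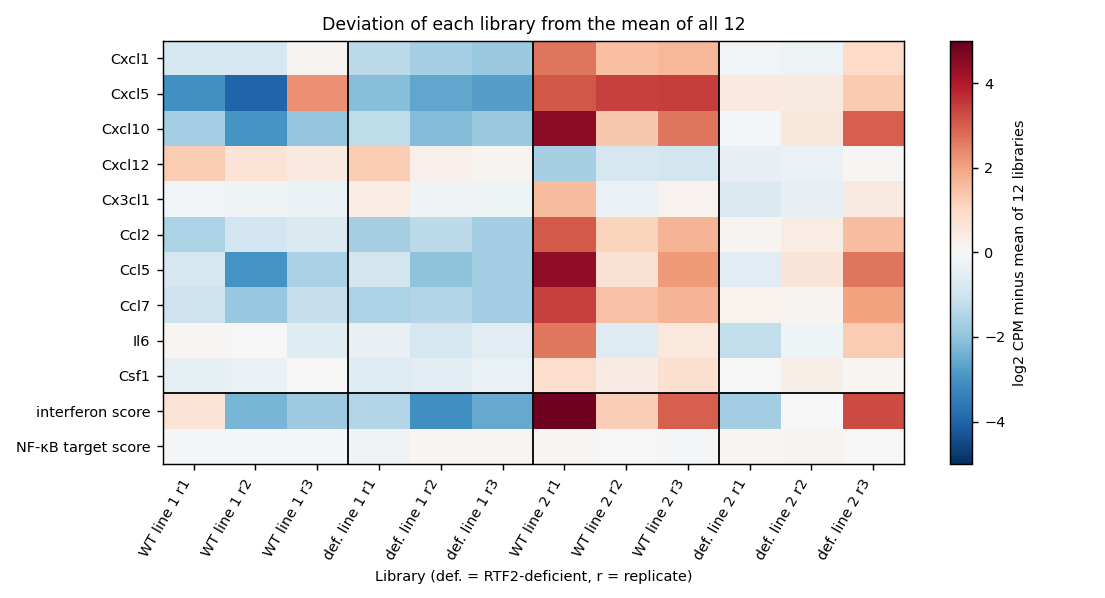
Log2 CPM of each gene in each of the 12 libraries minus its mean over the 12, with the interferon score and the median of 15 NF-κB target and feedback genes below; red is above and blue below that mean, def. is RTF2-deficient and r is the replicate. WT line 2 replicate 1 and RTF2-deficient line 2 replicate 3 are red for most genes and for the interferon score, while the NF-κB row stays near white.

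Within groups the members tended to be high in the same libraries. WT line 2 replicate 1 was the highest of its group for 8 members, RTF2-deficient line 2 replicate 3 for 9, RTF2-deficient line 1 replicate 1 for 7 and WT line 1 replicate 1 for 6. Each of these 4 libraries also had the highest interferon score of its group. As a description over 12 libraries, which share their 4 groups, deviations of log2 CPM from the group mean had a Pearson's r with those of the interferon score of 0.951 for Ccl5, 0.939 for Cxcl10, 0.866 for Il6, 0.842 for Ccl7, 0.835 for Cx3cl1, 0.596 for Cxcl1 and 0.584 for Ccl2. Those of Cxcl12 (0.280), Csf1 (0.120) and Cxcl5 (-0.011) were lower. Cxcl10 and Ccl5 deviated together with an r of 0.981. Among the 45 pairs of members r ran from -0.643, for Cxcl12 and Csf1, to 0.981, with a median of 0.512. The NF-κB score, the median over the 15 genes, lay within 5.04 to 5.38 in all 12 libraries, and its deviations had an r of -0.808 with those of Cxcl12. For the other members this r ran from -0.20 (Cxcl10) to 0.288 (Csf1). A median can hide genes that differ: between the WT lines 6 of the 15 passed the adjusted p, all higher in WT line 2, and 2 of them were called, Nfkbie at 1.03 (edgeR adjusted p = 0.0170) and Ptgs2 at 1.08 (adjusted p = 0.0379). Of all genes, 14.0% passed the adjusted p in that comparison and 6.76% were called. The part of the interferon-stimulated genes in any difference above was not tested.

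**Figure D4:**
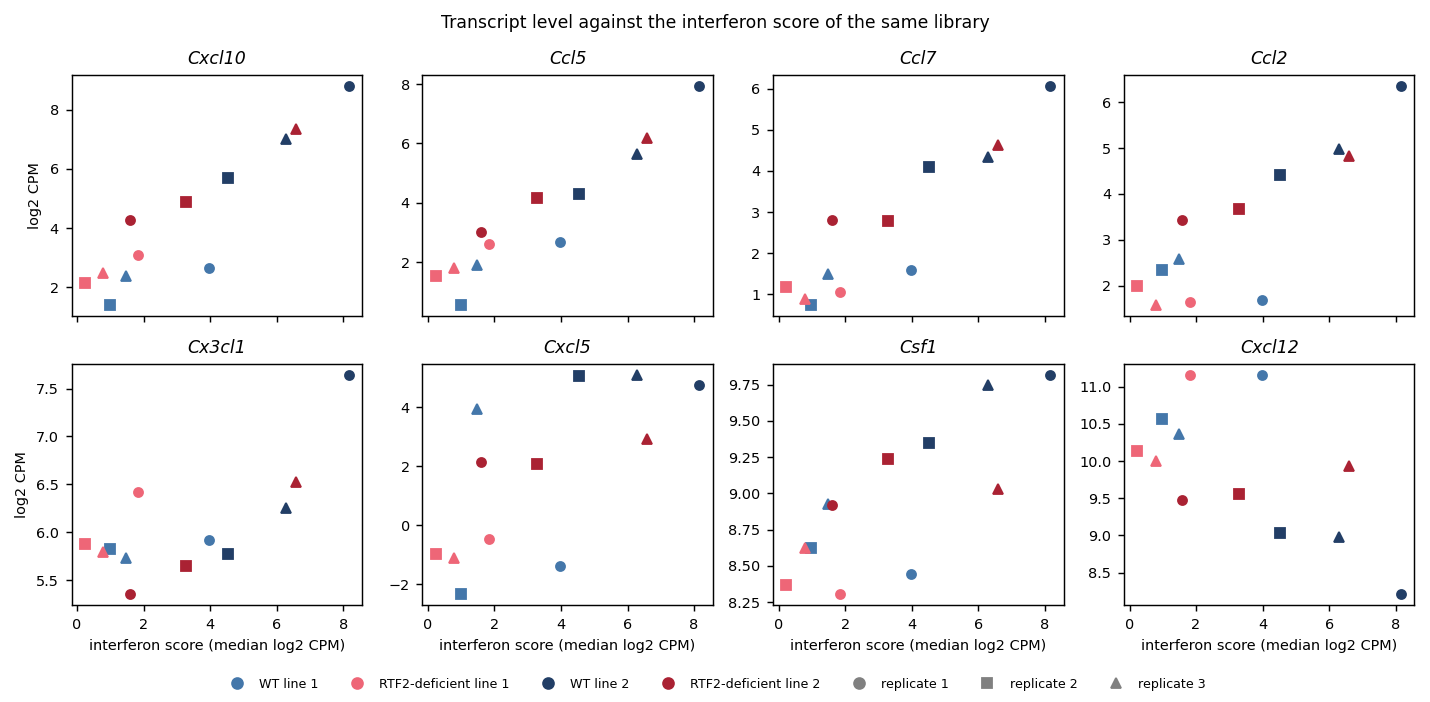
Log2 CPM of 8 of the genes against the interferon score (median log2 CPM of 29 interferon-stimulated genes) of the same library, 12 libraries coloured by group with marker shape for the replicate. Cxcl10 and Ccl5 climb with the score across groups, but for both every line 2 library also lies above every line 1 library. RTF2-deficient line 2 replicate 1, with a score of 1.59, has Cxcl10 at 4.26 and Ccl5 at 3.01. WT line 1 replicate 1, with a score of 3.98, has these genes at 2.65 and 2.67. Cxcl5 and Cxcl12 separate by line and library, and WT line 2 replicate 1 has the highest score, 8.16.

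Genes whose log2 CPM followed each member most closely over the 12 libraries were found by Pearson's r, a pooled measure that includes the difference between the lines. Cxcl10 was nearest to Oasl1 (0.993), an interferon-stimulated gene, to Ccl5 (0.988) and to Slc19a2 (0.985). Ccl5 was nearest to Oasl1 (0.991), Cxcl10 (0.988) and St14 (0.987). Ccl7 was nearest to Tnfaip8l3 (0.984), Gch1 (0.982) and Cxcl10 (0.982), and Ccl2 to Coro2a (0.988), Tnfaip8l3 (0.985) and Fbxo34 (0.980). The nearest of Il6 were Pla1a (0.967), Znfx1 (0.967) and the cytidine deaminase gene Apobec1 (0.964), and those of Cx3cl1 were Ncoa7 (0.964), Mfap1a (0.960) and Dapp1 (0.960). Cxcl12 kept other company, with Kctd15 (0.990) and the homeobox genes Hoxa3 (0.977) and Hoxa2 (0.974), which mark position along the body axis. Cxcl1 was nearest to Msln (0.973), Eif2d (0.963) and Usp51 (0.960), Cxcl5 to Enpp2 (0.961), Rpp40 (0.937) and Osr2 (0.935), and Csf1 to Atf7ip2 (0.966), Cavin4 (0.964) and Slc25a37 (0.963).

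The genes around the members in their pathways were read from lists, and genes named from them here were picked after their values were seen. Of 14 receptor genes of the members, 6 were expressed enough to be tested and none was called over both lines by edgeR or DESeq2 (2 at an unadjusted p under 0.05), with 1 past the adjusted p alone, Il6ra, at -0.64 (edgeR adjusted p = 0.0313). Receptors that leukocytes carry were low. Cxcr2, the receptor of CXCL1 and CXCL5, had 42 to 62 counts in a library and Csf1r, that of CSF1, had 28 to 76, while Cxcr3 and Ccr1 had at most 1 count in a library, Ccr2 at most 6 and Ccr3 none, whereas Il6st had at least 14338 counts and Ackr3, the scavenging receptor of CXCL12, at least 1051. Cxcr4, the signalling receptor of CXCL12, had 4 to 33 counts. Of 29 other chemokine ligand genes, 12 were tested and none was called over both lines by edgeR (4 at an unadjusted p under 0.05), with a median log2 fold change of -0.27 and with Ccl27a (-0.87, edgeR adjusted p = 0.00126) past the adjusted p alone. DESeq2 gave 2 of the 12 no adjusted p over both lines and called none of the rest. In line 2 edgeR called 1 of them, Cxcl3, lower at -1.55 (adjusted p = 0.0261), and DESeq2 called 2. Between the WT lines 4 of the 12 were called, beside 6.76% of all genes, with a median of 1.08. Of these 4, 3 were higher in WT line 2 (3.89% of all genes) and 1 was lower (2.87%). The lower one was Ccl17, at -2.31 (edgeR adjusted p = 0.00671). The others were Ppbp, a neighbour of Cxcl5 in the cluster on chromosome 5, at 3.82 (edgeR adjusted p = 0.00508), and 2 genes that lie in the clusters of Cxcl1 and Cxcl10 and were almost unread in WT line 1. Of these, Cxcl3 had a group mean of 0.0243 CPM in WT line 1 and 1.33 CPM in WT line 2, whereas Cxcl11 had 0, 0 and 1 counts in WT line 1 and 456, 9 and 15 counts in WT line 2, where replicate 1 alone set the level. Cxcl3 and Cxcl11 could pass the filter on low counts only through line 2, so the direction of their calls was fixed beforehand.

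Of 17 genes for inflammatory inducers and their receptors, 13 were tested and none was called over both lines by either tool (3 at an unadjusted p under 0.05). Past the adjusted p alone, and lower, were Il1r1, the signalling receptor of interleukin 1, at -0.49 (edgeR adjusted p = 0.0226), and the TNF receptor gene Tnfrsf1a at -0.20 (adjusted p = 0.0410). The inducer genes themselves were nearly silent, with at most 10 counts of Tnf, 3 of Il1a and 2 of Il1b in a library. Ifnb1, the gene of interferon beta, had 69, 0 and 6 counts in WT line 2, 0, 2 and 5 in RTF2-deficient line 2 and at most 1 in any library of line 1, and its highest count was in the library with the highest interferon score. All 15 NF-κB target and feedback genes were tested and none was called over both lines by either tool (8 at an unadjusted p under 0.05), with a median of -0.13. Past the adjusted p alone were Nfkbia (-0.33), Nfkb2 (-0.32) and Birc3 (-0.32), lower, and Tnip1 (0.18), higher. In line 2, 5 of the 15 passed the adjusted p, all lower, beside 12.5% of all genes in either direction. Of these, 1 was called, Nfkbie at -1.01 (edgeR adjusted p = 0.0203), beside 3.78% of all genes. None of the 29 interferon-stimulated genes was called by edgeR over both lines, in line 1 or in line 2 (2, 0 and 2 at an unadjusted p under 0.05, and 2, 0 and 0 called by DESeq2), although all 29 lay below 0 over both lines with a median of -1.59. None of the 10 genes of the other members of the IL-6 family and colony stimulating factors (7 tested), of 8 factors that bind or destroy cytokine mRNAs (8 tested) or of 3 proteases that shed or trim the ligands (3 tested) was called over both lines by edgeR or DESeq2, with 0, 3 and 0 of them at an unadjusted p under 0.05. Epithelial markers summed to 2.27 to 14.0 CPM and endothelial markers to 10.7 to 21.5 CPM, and Krt18 (0.74, edgeR adjusted p = 0.0381) and Kdr (0.58, adjusted p = 0.0492) passed the adjusted p, higher, without being called. Between the WT lines Krt18 was called higher in WT line 2 (1.94, edgeR adjusted p = 0.00213), and of the fibroblast markers Pdgfrb (-0.94), Col1a2 (-0.63) and Thy1 (-0.62) passed the adjusted p there, lower, without being called. Their part in the members' values was not tested.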

How the data were processed

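RNA from SV40-immortalized MEFs was sequenced 72 hrs after Cre in 12 libraries. The table the authors deposited holds the raw read count of each gene in each library, by Entrez Gene number and without normalization. The methods name Salmon, tximport and UCSC mm10 gene models, but HTSeq and mm10 stand in the submitters' processing notes, which leaves the counting tool unsettled. For strand use and poly(A) selection the answer is not given in the sources used here. Overlapping and near-identical genes could therefore share reads.

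Columns were matched to samples by title. Symbols and positions came from RefSeq's GRCm38 annotation, which held 24045 of the 24100 identifiers, and exon lengths from GENCODE M21. Library totals had a median of 42066276 counts. A count of 0 allows up to 3 counts, or 0.0762 CPM in the shallowest library, which covers counting error only.

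With R 4.3.3 and edgeR 4.0.16, 14263 genes were kept by filterByExpr with the 4 groups, scaled by TMM and fitted by glmQLFit over all 12 libraries, with terms for line and genotype. Contrasts within lines, between WT lines and for the interaction came from a layout of the 4 groups. SE is the unshrunken coefficient over the square root of F. P-values were adjusted by Benjamini-Hochberg over all genes tested and measure only the spread between libraries, which may be technical. Log2 CPM used a prior count of 2. DESeq2 1.42.0 and limma 3.58.1 (voom) were alternatives, together with RLE and upper-quartile normalization, other filters, no line term, a replicate block, summed groups and each library left out. The fit over both lines was tested on simulated data; the other contrasts were not. Same-numbered libraries deviated together among WT line 1, RTF2-deficient line 1 and WT line 2 (r from 0.287 to 0.625 over 9 pairs) but not with RTF2-deficient line 2 (r from -0.587 to 0.17), where the numbers do not pair libraries. Replicates 3, 1 and 2 of that group correlated with replicates 1, 2 and 3 of the others (r from 0.334 to 0.654), but no source pairs them and no crossed pairing was fitted. These are hints from the data, since no source says what a number shares.

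The genes named were Rtf2, the members, the 3 genes nearest to each member by Pearson's r, list genes called over both lines, and cell type and sex-linked markers as ranges. Other list genes were named after their values were seen. Members and lists were chosen with earlier results of these data known. A gene of the lists is not reported here. Promoter windows came from RefSeq (GRCm38.p6).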

Additional observations from a re-analysis of the deposited data

Results flagged for a closer look

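For each of the 10 genes the 6 libraries of one genotype were searched for a value far from the rest, judged by the gap to the nearest library as a share of the whole range. Of 20 such sets, 11 held one. Chance flags about 1 in 20 of independent sets, but these are not independent, since the genes were high in the same libraries and 10 of the 11 values lay in 2 libraries, so the count is not read against that share. Both lines enter each set, so a difference between lines widens its range.

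Of these 11, 6 were the highest WT value of a gene and lay in WT line 2 replicate 1. Cxcl10 had 449.6 CPM there against 128.4 in the nearest library (0.719 of the range), Ccl5 had 247.6 against 50.6 (0.8), Cx3cl1 had 200.4 against 76.4 (0.842), Ccl2 had 82.1 against 31.5 (0.641), Ccl7 had 67.3 against 20.03 (0.720) and Il6 had 3.84 against 0.850 (0.858).

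In RTF2-deficient line 2 replicate 3, Cxcl10 had 161.0 CPM against 29.7 (0.839), Ccl5 had 73.3 against 17.8 (0.788), Ccl7 had 24.8 against 6.95 (0.776) and Il6 had 1.45 against 0.488 (0.780). These 2 libraries had the highest interferon scores of the 12, 8.16 and 6.58. RTF2-deficient line 1 replicate 1 held Cxcl12 at 2279 CPM against 1125 (0.737), and its interferon score was 1.83. The part of the interferon-stimulated genes in these values was not tested.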

How the results depend on the processing

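Over the alternatives, 927 fold changes of members kept their direction and their side of the thresholds, 19 lost a call, 13 gained one and 11 changed sign. The number of members called over both lines, 2 of 10, was 1 with DESeq2, which gave Cxcl5 no p-value, 1 with a replicate block, 0 without a line term, 0 with the 3 libraries of each group summed (4 members at an unadjusted p under 0.05; this fit called no gene of the whole table, so it says nothing of the members), 4 by voom with groups as a random block (Ccl2 and Ccl7 added, at an estimated correlation within groups of -0.148), 1 without WT line 2 replicate 1 and RTF2-deficient line 2 replicate 3, a removal chosen after seeing the data, and 1 to 2 with each library left out. The negative correlation of the voom fit narrows the errors between groups, so that fit makes no allowance for technical replicates. In line 2, 1 member was called, 4 without the pair of libraries named above and 0 to 4 with each library left out. For the interaction the range was 0 to 1. Values that changed sign did so near 0 or with a single library: leaving out each in turn, Cxcl5 ran from -3.91 to 1.08 in line 1 and from -3.63 to 1.36 for the interaction, Cxcl12 in line 1 from -0.67 to 0.065, Ccl5 in line 1 from -0.28 to 0.71 and over both lines from -1.28 to 0.024, Cxcl10 over both lines from -1.13 to 0.023, Cx3cl1 over both lines from -0.46 to 0.086, and Il6 from -2.24 to 0.27 in line 2 and from -1.77 to 0.74 for the interaction. The cause was not tested.

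With the replicate number as a block, the interaction of Cxcl5 was -0.30 and its fold change over both lines -2.61 (edgeR adjusted p = 0.0507). Both values involve RTF2-deficient line 2, whose numbers do not pair its libraries with the others. For the comparison in line 1 and that between the WT lines, where same-numbered libraries deviated together, the block changed no call of a member. Genes called over both lines, 246, were 159 with a filter of 1 CPM in 6 libraries, 163 without a line term and 0 with summed libraries, and they ranged over 177 to 317 with a library left out. Those of the interaction, 150, were 268 with DESeq2 and 59 to 140 with a library left out. In line 1 the range was 78 to 135 and in line 2 it was 320 to 888. Depth limits Cxcl5, Il6 and Cxcl1 most, with as few as 6, 9 and 13 counts.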

Other observations

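The ratio of Ccl2 to Ccl7 counts, for a neighbouring gene pair, lay between 1.08 and 3.14 in the 12 libraries, and that of Cxcl1 to Cxcl5, in 1 cluster, between 0.0921 and 4.5. The lowest of the latter was in WT line 1 replicate 3 and the highest in WT line 1 replicate 2.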
